A study of Homo sapiens with 2 samples.

Results

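The genes described here lie side by side on the long arm of human chromosome 22, around MIF and CHCHD10. They are MIF, CHCHD10, DDT, DDTL, GSTT1, GSTT2, GSTT2B, SMARCB1, DERL3 and MMP11, 10 of the 54261 genes in the table. All 10 were found in the table by symbol. They were chosen by the read counts themselves, since MIF and CHCHD10 were both high in the library of the knockdown, and by their neighbourhood. The ratios of these genes between the 2 libraries are therefore descriptions, and nothing is tested with them.

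Both libraries came from RKO cells, an established human colorectal adenocarcinoma line. One group of cells was transfected with siRNA against HNRNPM, an RNA-binding protein of pre-mRNA splicing, and its genotype is labelled as an HNRNPM knockdown; the other was transfected with a control siRNA and is labelled WT. Each group had 1 library, so no difference below has a replicate check and no p-value is given. Reads assigned to genes numbered 13056118 for siHNRNPM and 19931360 for the control. HNRNPM had 1042 reads against 2870 in the control library, a log2 ratio of -0.86 (-0.96 to -0.76). The epithelial genes KRT8, KRT18 and EPCAM were read in both libraries, whereas CDH1 had 1 and 10 reads and KRT19 1 and 1. The leukocyte and endothelial markers had at most 2 reads in either library, and the fibroblast markers COL1A1, COL1A2, LUM and DCN had 21 and 13, 14 and 8, 1 and 0, and 0 and 0 reads.

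MIF encodes macrophage migration inhibitory factor, a small cytokine that is also a tautomerase enzyme and signals through the receptor CD74. DDT encodes its homologue D-dopachrome tautomerase, and DDTL is a DDT-like gene beside it. CHCHD10 encodes a twin CX9C protein of the mitochondrial intermembrane space, where such proteins are folded by disulfide bonds. GSTT1, GSTT2 and GSTT2B encode theta-class glutathione S-transferases, which join glutathione to electrophiles. SMARCB1 encodes a core subunit of the BAF chromatin-remodelling complexes, DERL3 a derlin of endoplasmic reticulum-associated degradation, and MMP11 the matrix metalloproteinase stromelysin-3.

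The promoters of the 3 genes that were higher in the siHNRNPM library are shown first. Each run is the 250 bases before the RefSeq start on GRCh38.p14, read 5′ to 3′ on the gene's own strand. Capitals mark the GC box GGGCGG on either strand, the motif of SP1-type factors. MIF lies on the plus strand (chr22:23894133-23894382), CHCHD10 on the minus strand (chr22:23767973-23768222) and DDT on the minus strand (chr22:23980505-23980754).
MIF: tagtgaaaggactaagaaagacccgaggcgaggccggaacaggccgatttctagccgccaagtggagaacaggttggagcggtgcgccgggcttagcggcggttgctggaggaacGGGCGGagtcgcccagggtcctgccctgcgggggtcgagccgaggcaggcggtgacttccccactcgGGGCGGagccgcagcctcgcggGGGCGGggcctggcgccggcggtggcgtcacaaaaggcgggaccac
CHCHD10: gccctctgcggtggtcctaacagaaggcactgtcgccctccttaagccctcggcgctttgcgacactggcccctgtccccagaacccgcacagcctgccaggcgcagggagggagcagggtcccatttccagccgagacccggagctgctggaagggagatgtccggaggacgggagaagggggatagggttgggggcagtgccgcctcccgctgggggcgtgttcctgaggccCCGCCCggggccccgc
DDT: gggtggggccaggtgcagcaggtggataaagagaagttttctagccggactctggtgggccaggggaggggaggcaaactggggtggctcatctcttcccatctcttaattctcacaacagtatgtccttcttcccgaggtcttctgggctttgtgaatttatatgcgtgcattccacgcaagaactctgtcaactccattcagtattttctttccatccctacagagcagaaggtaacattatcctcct

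The MIF promoter held 3 GC boxes, the CHCHD10 promoter 1 and the DDT promoter 0. Among 35116 RefSeq promoters of the same length, 42.6% held at least 1. The G and C content was 70.4% in both the MIF and the CHCHD10 promoter and 50% in the DDT promoter, against a median of 58% over all promoters. MMP11, with no read in either library, held 3 GC boxes as well, and SMARCB1 held 0. Every motif was searched on both strands. The TATA box TATAAA was found in DDT (1 match, 10.7% of all promoters) and in neither MIF nor CHCHD10. The CRE TGACGTCA, the E-box CACGTG and the shorter ACGTG, which is part of the E-box, matched none of these 5 promoters and 1.65%, 6.34% and 18.5% of all. CCAAT matched SMARCB1 alone of the 5 (1 match, 32.0% of all). Promoters of the other members were not in the table used here. The RefSeq start of DDT lies inside the GENCODE body of GSTT2, on the opposite strand. A match to a few letters is a description and not a binding site.

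GSTT2 and GSTT2B are near-identical copies, and DDT and DDTL share the first part of their coding sequence. A read from a stretch that a pair shares can be given to either gene. The coding sequences of GSTT2 and GSTT2B differ at 2 of 732 bases. DDT and DDTL are identical over their first 285 coding bases and differ from there on. The stretches around the first difference are shown, with differing bases in capitals and positions counted from the start codon. The DDT and DDTL stretches run from coding base 241 to 330 and those of GSTT2 and GSTT2B from 307 to 396, in GENCODE 29 transcripts.
DDT: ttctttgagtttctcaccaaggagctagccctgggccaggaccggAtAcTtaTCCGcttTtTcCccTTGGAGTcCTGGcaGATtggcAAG
DDTL: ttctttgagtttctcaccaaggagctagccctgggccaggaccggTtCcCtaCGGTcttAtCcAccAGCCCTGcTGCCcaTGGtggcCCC
GSTT2: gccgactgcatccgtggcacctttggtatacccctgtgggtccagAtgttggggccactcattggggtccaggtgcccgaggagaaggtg
GSTT2B: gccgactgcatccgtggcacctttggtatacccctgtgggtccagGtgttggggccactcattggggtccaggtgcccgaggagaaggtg

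In the longest protein-coding transcript of DDT, 37.7% of 50-base windows also occurred in a DDTL transcript, whereas 17.0% of those of DDTL occurred in DDT. For GSTT2 and GSTT2B the shares were 89.0% and 90.5%. MIF and DDT are older paralogues, with 63.6% identity over 324 aligned coding bases and no identical run over 7 bases. CHCHD10 and its paralogue CHCHD2 had 68.6% identity and a longest identical run of 8 bases.

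MIF was read 142 times in the siHNRNPM library and 26 times in the control library. These counts are 10.8 and 1.31 CPM, which are library-scaled counts per 1000000 reads. In bulk RNA, more RNA per cell and more cells with the RNA cannot be told apart. The level was 8.30-fold higher in the siHNRNPM library, a log2 ratio of 3.05 (2.44 to 3.72). The range in brackets, here and below, is a 95% counting interval, which leaves out variation between cultures and the fact that PCR copies are not independent molecules. Relative to transcript length, MIF stood at 11.6 RPKM (CPM per kilobase of transcript) in the siHNRNPM library and 1.39 in the control library. Of the measured protein-coding genes, 51.6% had a lower RPKM than MIF in the first and 9.88% in the second. A gene counted as measured when it reached a CPM of 1 in at least 1 library, which 12925 genes did.

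CHCHD10 was read 83 times in the siHNRNPM library and 8 times in the control library, or 6.34 and 0.402 CPM. It was 15.8-fold higher, a log2 ratio of 3.98 (2.93 to 5.24). With the control library thinned to the depth of the other, the same ratio was 5.37, so the few control reads set its size.

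DDT was read 26 times in the siHNRNPM library and 4 times in the control library, or 1.99 and 0.201 CPM. It was 9.87-fold higher, a log2 ratio of 3.30 (1.78 to 5.28). DDTL, the copy beside it, had 8 reads in each library, or 0.611 and 0.402 CPM, and a log2 ratio of 0.60 (-1.01 to 2.22). Since reads of the shared coding part cannot be assigned with certainty, the summed counts of DDT and DDTL were also taken, at 34 and 12 reads. The sum had a log2 ratio of 2.11 (1.12 to 3.19), smaller than that of DDT alone.

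The theta-class transferase genes did not share this pattern. GSTT1 had more reads than any of the other members, 214 in the siHNRNPM library and 362 in the control library. Its levels of 16.4 and 18.2 CPM gave a log2 ratio of -0.16 (-0.41 to 0.09). GSTT2B had 54 and 128 reads, or 4.13 and 6.44 CPM, and was 1.56-fold lower with a log2 ratio of -0.64 (-1.13 to -0.17). GSTT2 had 5 and 9 reads and a log2 ratio of -0.24 (-2.17 to 1.49). The GSTT2 and GSTT2B counts together had a log2 ratio of -0.61 (-1.08 to -0.16). The interval of GSTT2B lay below a ratio of 1 with and without its copy, and that of GSTT1 spanned it.

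The other members had few or no reads. SMARCB1 had 4 reads in the siHNRNPM library and 10 in the control library, or 0.306 and 0.503 CPM, with a log2 ratio of -0.72 (-2.85 to 1.08). DERL3 had 2 and 0 reads and MMP11 had 0 in both. A count of 0 allows up to 3 reads, which is 0.229 CPM at the depth of the knockdown and 0.151 CPM at that of the control, so no fold is given for these 2 genes.

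**Figure D1:**
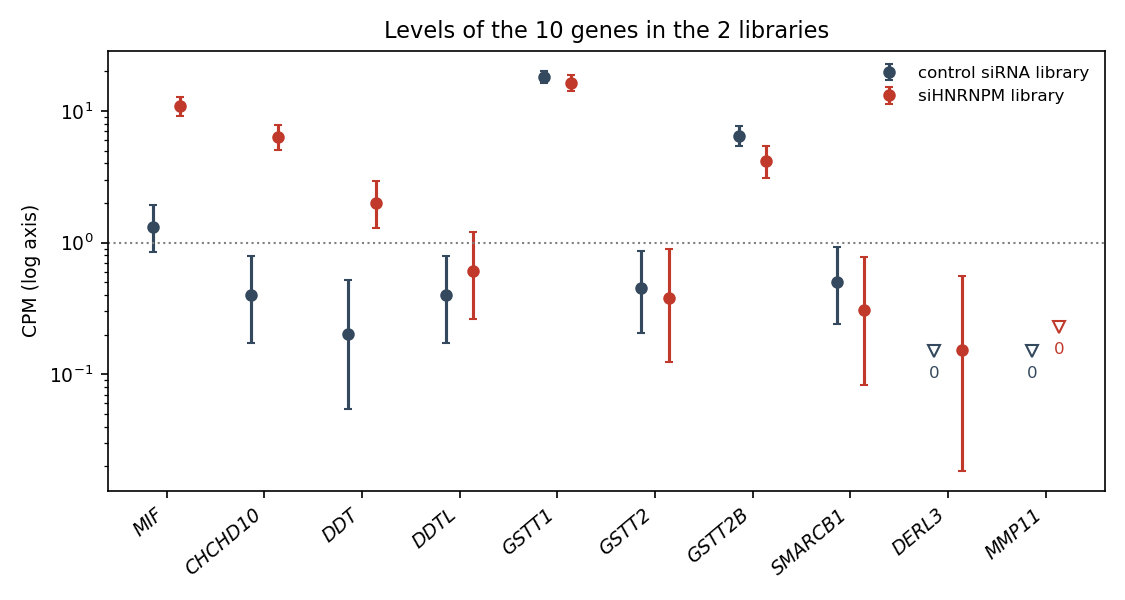
CPM of each of the 10 genes in the control siRNA library (dark) and the siHNRNPM library (red), on a log axis, with 95% counting intervals; an open triangle marks the limit that a count of 0 allows, and the dotted line a CPM of 1. MIF, CHCHD10 and DDT were higher in the siHNRNPM library with intervals that do not meet, while GSTT1 stood near 16.4 and 18.2 CPM.

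Of the 10 genes, 5 were measured by the CPM rule, and the others were too rare in both libraries. MIF, GSTT1 and GSTT2B passed in both libraries, whereas CHCHD10 and DDT passed only through the siHNRNPM library and so had to differ. For a gene to count as 2-fold higher or lower, its log2 ratio had to be at least 1 or at most -1, with an interval clear of a ratio of 1. By this rule 3 of the 5 measured members were higher (2.45% of all measured genes were) and 0 were lower (1.49% of all). The same contrast chose the members, so nothing is read from this count. Among the 12925 measured genes CHCHD10 had the 16th highest log2 ratio, DDT the 19th and MIF the 22nd. The middle of all measured genes was a log2 ratio of -0.01, with quartiles at -0.21 and 0.18.

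**Figure D2:**
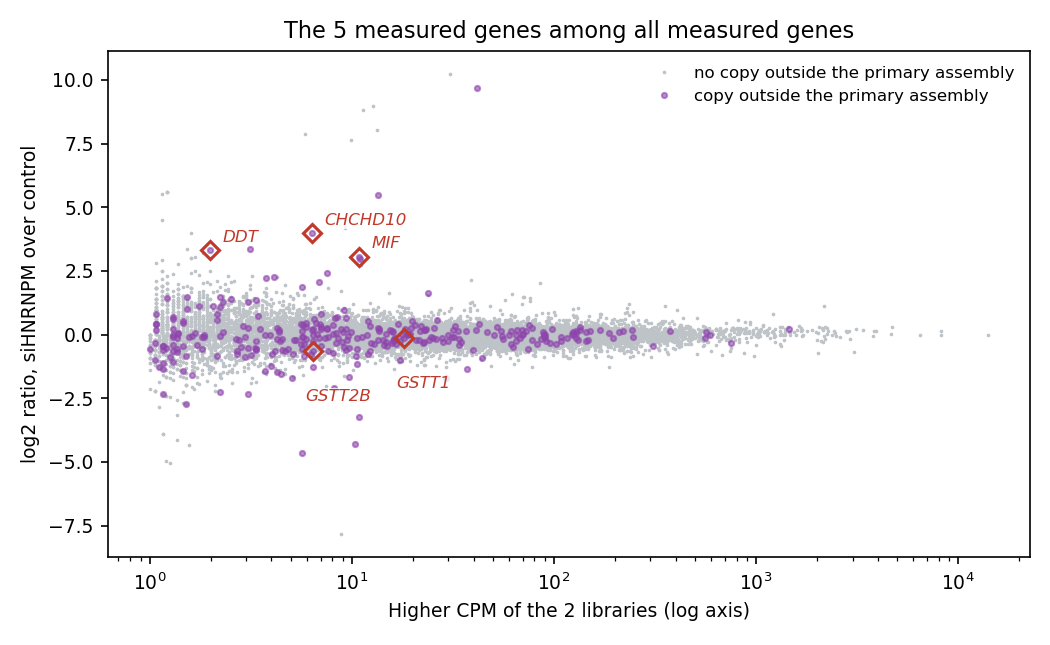
Each of the 12925 measured genes by its log2 ratio, siHNRNPM over control, against the higher of the 2 CPM values on a log axis; purple points have transcripts outside the primary assembly and red diamonds are the 5 measured members. CHCHD10 (3.98), DDT (3.30) and MIF (3.05) lie far above the median of -0.01, while GSTT1 and GSTT2B lie below 0.

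The pattern nearest to that of CHCHD10, among 10709 other genes that reached 5 CPM in either library, was that of the uncharacterised gene LOC105374027, with 121 and 10 reads and a log2 ratio 0.22 away. MIF was the next, 0.93 away, and then the mitochondrial carrier gene SLC25A26, with 143 and 28 reads and a log2 ratio 1.02 away. MIF and CHCHD10 were chosen because both were high in the siHNRNPM library, so their nearness is no separate result. The log2 ratio of SLC25A26, 2.96, was close to the 3.05 of MIF. MIF and SLC25A26 have transcripts outside the primary assembly, and LOC105374027 has none. No gene with a CPM of 100 or more came near MIF, which itself reached only 10.8 CPM. The nearest of these 2620 genes were SEMA3A, HMOX1 and NEAT1, whose log2 ratios of 1.21, 1.13 and 1.12 lay 1.85 to 1.94 below that of MIF. Likeness over 2 libraries is only a likeness of 1 ratio.

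Of the 9 measured genes in the neighbourhood, 4 were at least 2-fold higher (2.45% of all measured genes were), namely CHCHD10, MIF, DDT and SPECC1L. MIF and CHCHD10 were chosen for being high, and CHCHD10 and DDT passed the CPM rule only through the siHNRNPM library. Nothing about the region is therefore read from this count. The 9 members with a position on the primary assembly span 218 kb (chr22:23765834-23983915, GRCh38, GENCODE 29). From left to right along the plus strand lie CHCHD10 (chr22:23765834-23768443, minus strand), MMP11 (chr22:23768226-23784316, plus), SMARCB1 (chr22:23786931-23838008, plus) and DERL3 (chr22:23834503-23839128, minus). MIF (chr22:23894004-23895227, plus) comes next, then GSTT2B (chr22:23957414-23961186, minus), DDTL (chr22:23966901-23972532, plus), DDT (chr22:23971365-23979828, minus) and GSTT2 (chr22:23980058-23983915, plus). GENCODE calls GSTT2 a polymorphic pseudogene. Of the 4 measured genes inside the span, all of them members, 3 were higher, and GSTT2B, between MIF and DDT, was not. The same limit of choice holds for this count. MMP11, SMARCB1 and DERL3, between CHCHD10 and MIF, had too few reads to show a change or the lack of one. Inside this span the table also held SLC2A11, a sugar transporter gene with 3 and 2 reads, and MIF-AS1 and RN7SL268P with 0 reads in both libraries. Within 500 kb on either side, the table held 21 further genes, of which 5 were measured. By the 2-fold rule 1 of these 5 was higher and 0 lower, beside 2.45% and 1.49% of all measured genes. That gene was SPECC1L, a cytoskeletal cross-linker gene 377 kb to the right of MIF, with 512 and 324 reads and a log2 ratio of 1.26 (1.06 to 1.47). CABIN1, a calcineurin-binding protein gene and the nearest measured neighbour on that side, had 1540 and 2541 reads and -0.12 (-0.21 to -0.03). On the left, the zinc-finger gene ZNF70 had 159 and 196 reads and 0.30 (-0.01 to 0.61), the transcript GUSBP11 had -0.46 (-0.79 to -0.13) and the pseudogene ASLP1 had -0.36 (-1.22 to 0.45).

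Some members start or end within another gene or close to it. In GENCODE 29, DDT and GSTT2 start 230 bases apart and point away from each other. DDT had 26 and 4 reads, whereas GSTT2 had 5 and 9. CHCHD10 and MMP11 overlap there by 218 bases at their starts, on opposite strands, and MMP11 had no read while CHCHD10 had 83 and 8. The RefSeq start of MMP11, used for the promoter search above, lies farther right, past chr22:23772848 and outside this overlap. That of DDT lies farther right too, just below chr22:23980505 and inside GSTT2, so by that start DDT and GSTT2 overlap. MIF overlaps MIF-AS1 over 802 bases, and DDT overlaps DDTL over 1168 bases, each on opposite strands. SMARCB1 and DERL3 overlap by 3506 bases, also on opposite strands. Whether counting used strand was not given in the sources used here, so reads in these overlaps cannot be assigned with certainty. Other overlaps are on the same strand, where strand gives no help. MIF shares 1220 bases with the protein-coding gene AP000350.4, and DDT shares 8451 bases with the protein-coding gene AC253536.7, 2957 with the pseudogene AC253536.1 and 682 with the pseudogene AC253536.5. These 4 genes have no row under those names in the table.

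**Figure D3:**
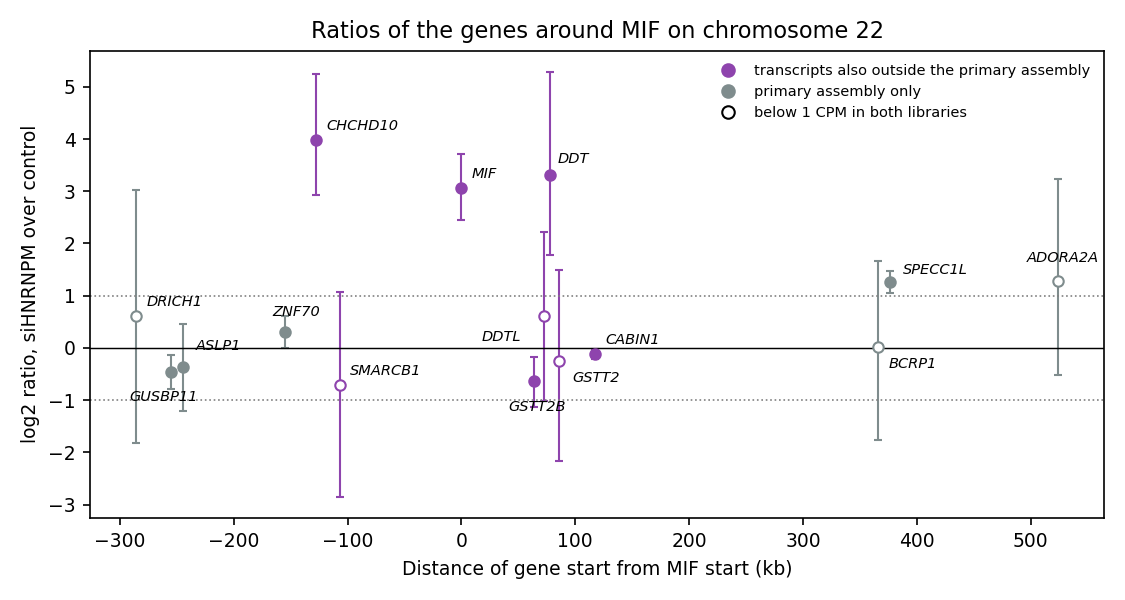
The log2 ratio with its 95% counting interval for genes around MIF, by the distance of the gene start from the MIF start in kb; purple points have transcripts outside the primary assembly, and open points were below a CPM of 1 in both libraries. CHCHD10, MIF and DDT stand above 3, while GSTT2B between them stands at -0.64 and the flanking CABIN1 and ZNF70 at -0.12 and 0.30.

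A feature of the genome annotation is shared by the members and by some of the genes around them. GRCh38 carries alternate and patch sequences beside the primary assembly, and reads from a gene present on both can be assigned differently or lost. GENCODE 29 lists transcripts outside the primary assembly for all 10 members and for all 12 genes of the table inside the span. It also does so for 4 of the 21 further genes within 500 kb. CABIN1 is 1 of them, with 1540 and 2541 reads and a log2 ratio of -0.12. The others, CES5AP1, ZDHHC8P1 and C22orf15, had 0 and 0, 1 and 0, and 0 and 0 reads. For GSTT1 GENCODE 29 lists no transcript on the primary assembly, so GSTT1 is given no position or RPKM here. Of the 311 measured genes with such transcripts, 7.40% were at least 2-fold higher and 6.75% at least 2-fold lower. Of the 12614 for which none is listed, some under symbols that GENCODE 29 does not hold, 2.33% and 1.36% were. The 311 were also read less, with a median of 9.17 CPM in the higher library against 34.9. Of 1015 protein-coding genes with such transcripts, 28.2% were measured and 51.1% had no read, against 59.2% and 25.3% of the 17782 without. GSTT1 had 214 and 362 reads all the same, so the reference behind the counts held a position for it. Which sequences the alignment used in full, and how reads with several positions were counted, was not given in the sources used here. The part of these copies in the values of the members was not tested. That holds for MIF, CHCHD10 and DDT, and for the low counts of SMARCB1, DERL3 and MMP11.

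Relatives and partners of the members, none of whose measured genes has such a copy, changed little. Beside the counts that follow, 22% of all measured genes had an interval above a ratio of 1 and 26.1% below it. None of the 6 lists held a measured gene past the 2-fold rule with TMM scaling of library sizes. MMP10 just reached a 2-fold ratio with upper-quartile scaling and a log2 ratio of 1.07 with the control library thinned, and GLTSCR1L reached -1.04 with the control library thinned.

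Receptors of MIF were read little, apart from CD44. CD74, the main MIF receptor, had 0 and 1 reads. The chemokine receptor genes CXCR2, CXCR4 and ACKR3 had 0 and 0, 5 and 6, and 0 and 1 reads. CD44, the signalling partner of CD74, had 4140 and 7117 reads and a log2 ratio of -0.18 (-0.23 to -0.12). Of 6 measured receptors and partners, 2 intervals lay above a ratio of 1, 2 below and 2 spanned it, with a median log2 ratio of -0.03 against -0.01 for all measured genes. COPS5, a COP9 signalosome subunit that binds MIF, had -0.21 (-0.34 to -0.08). The ribosomal protein gene RPS19 and the thioredoxin gene TXN had 0.22 (0.18 to 0.25) and 0.15 (0.09 to 0.20).

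Proteins that act with CHCHD10 in mitochondria include the MICOS complex of the inner membrane and other twin CX9C proteins. Of 26 measured genes of this list, 8 intervals lay above a ratio of 1, 4 below and 14 spanned it, with a median log2 ratio of 0.07. CHCHD2, the paralogue and binding partner of CHCHD10, had 4231 and 5715 reads and a log2 ratio of 0.17 (0.11 to 0.23). CHCHD3 and CHCHD6, both MICOS subunits, had log2 ratios of -0.51 (-0.64 to -0.38) and 0.35 (0.17 to 0.53). The copper chaperone gene COX17 had 0.41 (0.22 to 0.61) and the stress-activated protease gene OMA1 -0.46 (-0.77 to -0.16). None came near the 3.98 of CHCHD10. Per transcript length CHCHD10 stood at 5.42 and 0.344 RPKM, and CHCHD2 at 359 and 319.

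Among 14 measured glutathione S-transferases outside the locus, 5 intervals lay above a ratio of 1, 4 below and 5 spanned it, with a median log2 ratio of 0.05. The lowest ratio of these 14 was -1.23, with an interval that spanned a ratio of 1. The omega-class gene GSTO1 had a log2 ratio of -0.66 (-0.73 to -0.58), about that of GSTT2B. GSTM4, GSTA4 and GSTM1, of the mu and alpha classes, had -0.52, -0.39 and 0.37. At 3.75 and 5.86 RPKM, GSTT2B stood below the list's medians of 17.9 and 19.7.

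SMARCB1 was at 0.0587 RPKM in the siHNRNPM library and 0.0965 in the control library. It has transcripts outside the primary assembly, and none is listed for the measured subunits that follow. The part of this difference in its low level was not tested. The measured BAF and PBAF subunits had medians of 17.5 and 18.6, and the lowest of those with a transcript length, DPF3, had 0.507 and 0.846. SMARCB1 was itself below the CPM limit that these genes had to reach, so its place under them is set in part by that limit. Of the 28 subunit genes in the table, the 1 that did not reach it, the neuronal subunit gene ACTL6B, lay lower still, with 0 and 1 reads. The ATPase gene SMARCA4 and the core gene SMARCC1 had 25.3 and 26.1 RPKM in the siHNRNPM library. Of 27 measured subunits, 4 intervals lay above a ratio of 1, 14 below and 9 spanned it, with a median log2 ratio of -0.11. The subunit genes farthest from 0 were GLTSCR1L at -0.93 (-1.33 to -0.54), BCL7A at 0.75 (0.43 to 1.06), DPF3 at -0.74 (-1.40 to -0.11) and ARID1A at -0.43 (-0.55 to -0.31).

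DERL3 was read less than its relatives, whereas MMP11, with no read, was like much of its family. Both have transcripts outside the primary assembly, and the part of this in their counts was not tested. RNF5 and MMP28, of the 2 lists that follow, also have such transcripts and had no read in either library. The derlin genes DERL1 and DERL2 had 44.9 and 11.2 RPKM in the siHNRNPM library, against 0.0491 for DERL3. Of 24 measured genes of endoplasmic reticulum-associated degradation, 7 intervals lay above a ratio of 1, 5 below and 12 spanned it, with a median log2 ratio of 0.01. EDEM1, which trims mannose from misfolded glycoproteins, had -0.37, and AUP1 0.34, while the ubiquitin-linked genes UBE2J1 and FAF2 had -0.35 and -0.33. Of 27 matrix metalloproteinases and inhibitors in the table, 11 had no read in either library and 9 were measured, with 3 intervals above a ratio of 1, 1 below and 5 spanning it and a median log2 ratio of 0.10. MMP10, MMP25 and MMP1 had 0.97 (0.46 to 1.48), 0.76 (0.14 to 1.39) and 0.61 (0.34 to 0.88). The inhibitor gene TIMP1, at 4385 and 7951 reads, had -0.26 (-0.31 to -0.20).

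**Figure D4:**
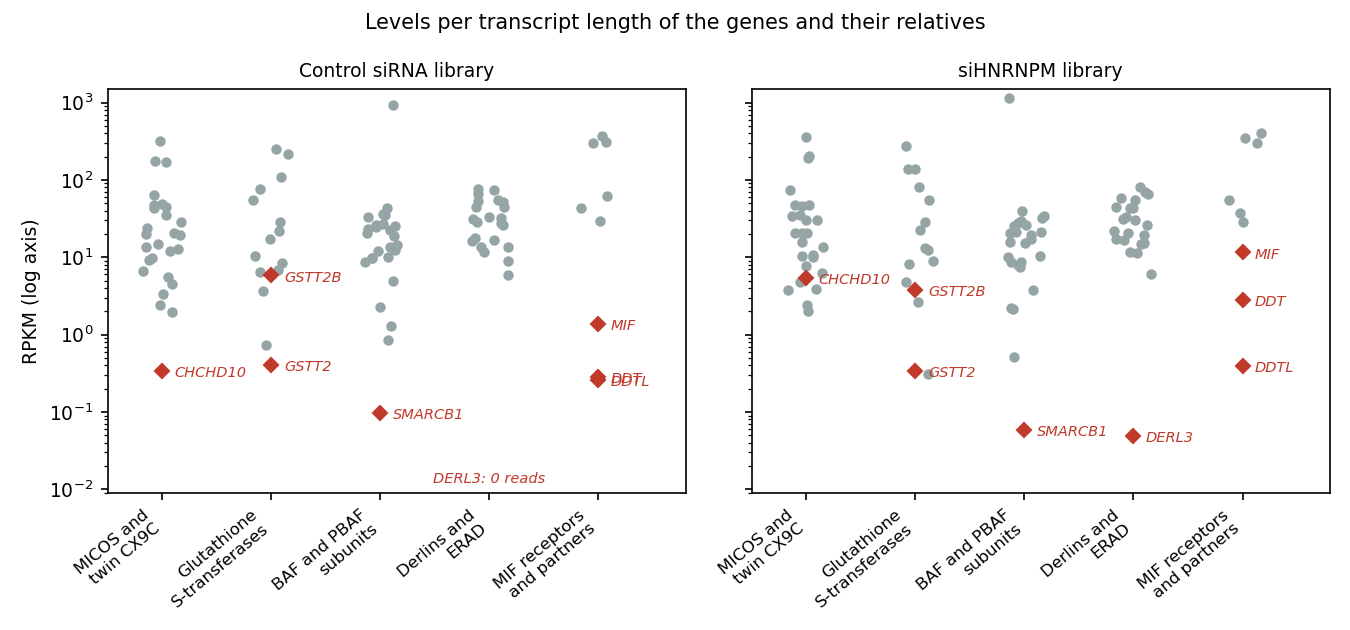
RPKM on a log axis in each library for measured genes of 5 lists (grey points) and for the members that belong beside them (red diamonds). The members have transcripts outside the primary assembly, and the genes of the grey points have none. SMARCB1 stands at 0.0965 and 0.0587, under the CPM limit that the grey points had to reach, CHCHD10 lies below its list in the control library only, and DERL3 had 0 reads in the control library.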

How the data were processed

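RNA of 2 RKO libraries, 1 per group, was analysed from whole-number read counts per gene symbol, deposited by the authors without normalization, per the file header. HISAT2 2.0.4 and GRCh38 are listed per the submitters' processing notes, with no role stated; the sources used here give neither the counter nor the annotation. Columns were tied to libraries by title.

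Counts were scaled with TMM (edgeR 4.0.16, R 4.3.3), a count of 0 was set to 0.5, and log2 ratios received exact Clopper-Pearson 95% intervals (SciPy 1.17.1), tested on simulated data. Genes below a CPM of 1 in both libraries were left out. RPKM used the longest protein-coding transcript of GENCODE 29. Copies were recorded where GENCODE lists transcripts outside the primary assembly, and a symbol not listed there was counted as having none. Promoters came from RefSeq (GRCh38.p14), which held 5 of the 10 members.

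The members and lists were chosen with earlier results of these data known. Named from each list were up to 4 genes farthest from a log2 ratio of 0 with an interval clear of a ratio of 1, with MIF receptors, genes of the region and the nearest patterns; other genes given beside them as direct relatives of a member were chosen after their values were seen. Alternatives were DESeq2 1.42.0 size factors, total-count and upper-quartile scaling, thinning, other CPM filters, a count of 0 set to 1, a stricter fold rule, summed copies and genes without copies.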

Additional observations from a re-analysis of the deposited data

How the results depend on the processing

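MIF, CHCHD10 and DDT kept their direction and the 2-fold rule under every scaling, with the control library thinned and under a rule that places the entire interval beyond 2-fold. The scalings could not have changed this, since they moved the median of all measured genes only between -0.02 and 0.02. Over the scalings and thinning MIF ran from 2.82 to 3.08, DDT from 2.69 to 3.34 and CHCHD10 from 3.97 to 5.37, the last from the thinned control library, where fewer reads of CHCHD10 were left. At a CPM of 5 or more only 2 members counted as higher, since DDT no longer passed. The counts of all measured genes at least 2-fold higher and lower moved from 317 and 193 to 602 and 301 without a CPM filter, to 70 and 50 at a CPM of 5 or more, and to 66 and 27 under the rule for the entire interval, each by construction of the rule. Without genes that have a copy outside the primary assembly they were 294 and 172. The list medians stayed between -0.14 and 0.17 under every alternative, including the removal of list genes with such a copy, which was added after seeing the data and removed no measured gene. The median of the measured genes within 500 kb, with members among them, was 0.30 and reached 0.60 without a CPM filter. For the measured genes outside the span, none of them members, it was -0.12. No paired analysis was possible because each group has 1 library. At 4 to 26 control reads, the depth of the control library limits how closely the ratios of DDT, CHCHD10 and MIF are known.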
